A study of Caenorhabditis elegans with 2 samples.

Results

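The genes described here are the 64 of 346 annotated C. elegans snoRNA genes that had a CEH-36::GFP ChIP-seq peak beside them in early embryos. They were chosen by the peaks themselves: a gene was taken where a summit of the authors' optimal peak list lay within 200 bp of it and no tRNA gene lay within 500 bp of that summit. The 64 genes lie at 63 peaks, because C51F7.4 and C51F7.3, which are neighbours on chromosome V, share 1 peak. The other 282 snoRNA genes had no such summit and serve as the comparison. The tRNA condition removed 0 genes. The study immunoprecipitated CEH-36 from strain OP620 (unc-119(tm4063) III; wgIs620), a transgenic line in which CEH-36 carries a C-terminal GFP-FLAG tag, and sequenced the DNA of sonicated chromatin. Both biological replicates were pooled male and female whole early embryos taken 2 h after synchronization by egg bleaching. The sample text names an anti-GFP antibody, while its antibody field reads ceh-36. There is 1 group of 2 replicates, so conditions cannot be compared, and peaks from a strain without the tag or from another factor are not analysed here. The signal averages over all cells of the embryo.

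Small nucleolar RNAs guide chemical modification of ribosomal RNA: C/D box snoRNAs direct 2'-O-methylation and H/ACA snoRNAs direct pseudouridylation. Many animal snoRNAs are processed from introns of protein-coding host genes, while others are transcribed from promoters of their own. RNA polymerase III transcribes tRNA genes from internal promoter elements called box A and box B, which transcription factor TFIIIC recognises. CEH-36 is an Otx-class homeodomain protein known for its role in sensory neuron fate, and homeodomains of its class bind the core TAATCC. The annotation names nearly all snoRNA genes by clone and number and does not give their rRNA targets.

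The first windows printed here were picked from members with strong peaks that hold both a box A and a box B core before the gene. Other strong members, among them ZK265.10, C51F7.4, ZK994.7 and B0334.12, lack such a pair. Each sequence below runs from 80 bp before to 10 bp after the annotated gene start, on the strand of the gene, in build WBcel235 (the RefSeq genome sequence), and capitals mark the bases aligned with the box A core TGGCNNAGT and the box B core GTTCNANNC, with at most 1 mismatch in each. W03C9.9 is read from chrII:11960818-11960907 (plus strand), T03F7.8 from chrV:11314178-11314267 (plus strand) and Y43F8C.22 from chrV:19643178-19643267 (minus strand). C04G6.12 is read from chrII:5105222-5105311 (minus strand), T24H7.6 from chrII:6248637-6248726 (plus strand) and M106.6 from chrII:10840237-10840326 (plus strand). In each, the cores stand in the order box A then box B, upstream of the snoRNA gene.
W03C9.9: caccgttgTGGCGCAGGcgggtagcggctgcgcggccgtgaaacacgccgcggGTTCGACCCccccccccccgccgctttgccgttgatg
T03F7.8: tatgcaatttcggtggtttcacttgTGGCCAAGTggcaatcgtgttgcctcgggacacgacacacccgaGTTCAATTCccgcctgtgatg
Y43F8C.22: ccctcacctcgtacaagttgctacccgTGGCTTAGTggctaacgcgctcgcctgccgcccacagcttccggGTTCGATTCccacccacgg
C04G6.12: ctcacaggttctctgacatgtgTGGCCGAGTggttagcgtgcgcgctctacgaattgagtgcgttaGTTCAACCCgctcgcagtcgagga
T24H7.6: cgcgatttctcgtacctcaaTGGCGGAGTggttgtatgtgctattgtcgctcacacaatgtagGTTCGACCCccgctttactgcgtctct
M106.6: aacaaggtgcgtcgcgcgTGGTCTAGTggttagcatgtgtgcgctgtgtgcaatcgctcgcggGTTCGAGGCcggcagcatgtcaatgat

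For contrast, the next windows are drawn the same way from members that lack such a pair and from a snoRNA gene that has the pair but no peak in the optimal list. C51F7.3 is read from chrV:12303628-12303717 (plus strand) and ZK994.7 from chrV:8500499-8500588 (plus strand), and neither has capitals because no pair was found by the rule. The window of F12F6.11, which has no optimal peak, is read from chrIV:11549855-11549944 (minus strand).
C51F7.3: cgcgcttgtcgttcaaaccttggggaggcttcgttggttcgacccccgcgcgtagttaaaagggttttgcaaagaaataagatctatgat
ZK994.7: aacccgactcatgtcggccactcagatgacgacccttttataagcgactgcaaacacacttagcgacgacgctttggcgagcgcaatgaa
F12F6.11: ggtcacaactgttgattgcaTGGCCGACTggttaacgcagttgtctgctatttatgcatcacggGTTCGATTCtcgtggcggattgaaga

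Having a peak was more frequent among snoRNA genes than among other genes. A summit lay within 200 bp of 18.5% of snoRNA genes, against 2.83% of the 45946 genes that are neither snoRNA nor tRNA genes and 4.28% of the 19985 protein-coding genes, by the same rule. Longer genes have more room for a summit, so starts were also compared: 62 of 346 snoRNA gene starts (17.9%) and 183 of 19985 protein-coding gene starts (0.916%) had a summit within 200 bp. These shares are descriptions, since the peaks chose the members. By chromosome, peaks lay at 18 of 74 snoRNA genes on chromosome I, 15 of 71 on II, 9 of 54 on III, 9 of 59 on IV, 12 of 55 on V and 1 of 33 on X, which is Y102A11A.16. The share of other genes with a peak was not counted by chromosome. Whether the lower share on X is particular to snoRNA genes was therefore not tested.

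The member peaks were among the strongest nuclear peaks of the list. Signal and q-value are the scores of the authors' peak caller and are used only to order peaks within 1 list. The median signal was 285.4 at the 63 member peaks (range 89 to 942.5), against 122.3 at the other 1573 nuclear optimal peaks (range 87.2 to 817.5). Member peaks made up 7 of the 10 strongest nuclear peaks and 21 of the 50 strongest, of which a further 15 had a tRNA gene within 500 bp. Of the 63, 32 (50.8%) were within the strongest 163 of 1636 nuclear peaks and 14 were in the weaker part of the list, below its median.

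In replicate 1 alone the member peaks had a median rank of 211, against 866.5 for the other nuclear optimal peaks. Replicate 2 gave a median rank of 161.5 for the 62 member peaks with an overlapping entry, against 841.5 for the others. Rank 1 is the strongest of the 30000 entries in each replicate's list, mitochondrial entries included. Of the member peaks, 51 of 63 (81%) were in the top of both replicates' lists, cut to the length of the optimal list, against 1071 of 1573 (68.1%) of the other nuclear optimal peaks and 178 of 205 (86.8%) of the peaks near tRNA genes. The replicate summits lay a median of 12.5 bp apart at member peaks, against 22 bp at the other nuclear optimal peaks. The optimal list was itself thresholded on both replicates, so none of these values was tested.

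**Figure D1:**
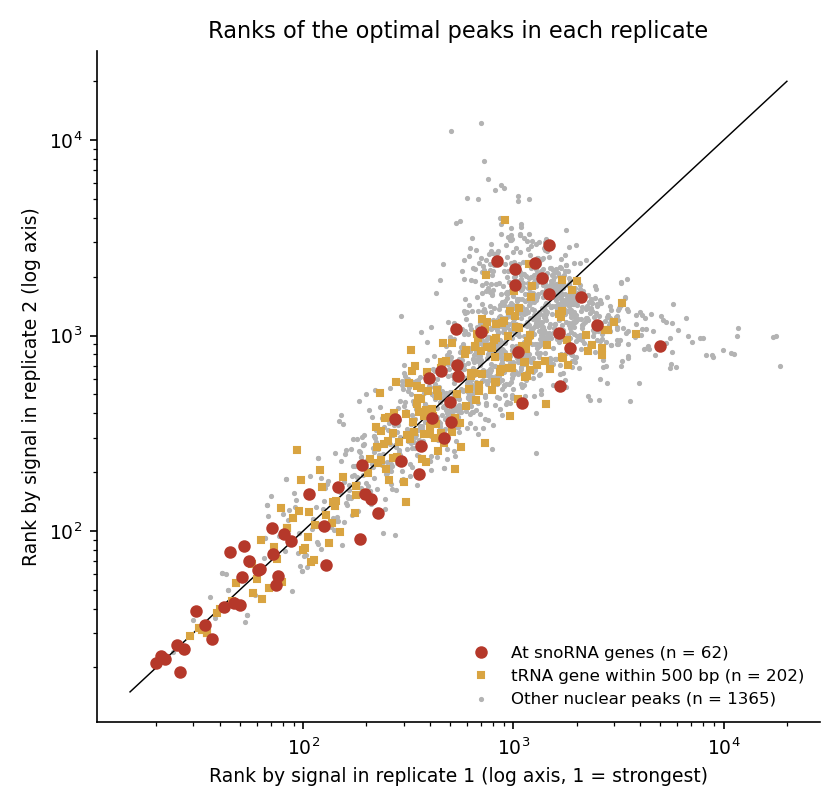
Rank by signal in replicate 1 (x) and replicate 2 (y), both on log axes with 1 the strongest, for each nuclear optimal peak with an entry in both replicates. Of the 62 peaks at snoRNA genes (red), the strong ones lie near the diagonal and weaker ones scatter off it, as at B0524.10 (ranks 4987 and 888). Of the 63 member peaks, 32 were among the strongest 163 nuclear peaks.

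The strongest nuclear peak of the series stood 62 bp upstream of W03C9.9, a 62 bp snoRNA gene on chromosome II outside any coding gene. Its signal was 942.5 in the pooled list, with 420.9 in replicate 1 (rank 20) and 522.5 in replicate 2 (rank 21). ZK265.10, on chromosome I and also outside coding genes, followed with a signal of 880.1 (340.0 in replicate 1 and 537.4 in replicate 2) and its summit 63 bp upstream. T03F7.8, which overlaps only a gene on the other strand, had 872.4 (398.2 and 470.0 in replicates 1 and 2), with the summit 47 bp upstream. All of these had ranks between 19 and 26 in both replicates. The peak shared by C51F7.4 and C51F7.3 had a signal of 863.9 (379.4 and 480.8 in replicates 1 and 2), and its summit lay 33 bp inside C51F7.4 and 76 bp upstream of C51F7.3. C51F7.4 overlaps an annotated exon on its own strand, whereas C51F7.3 lies in an intron of frm-7, which encodes a FERM domain protein.

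Further members with no host intron on their strand completed the strongest 10 of that kind. T06C12.16 had a pooled signal of 753.3 (342.8 and 408.5 in replicates 1 and 2) and a summit 46 bp upstream. B0334.12 had 575.3 (257.2 and 321.1), with the summit 119 bp after the gene start and so beyond the end of the 70 bp gene. Its position makes it an exception among the strong peaks, of which most lay just upstream. T02E1.9 had 565.3 (272.1 and 294.7) with the summit 55 bp upstream, and C04G6.12 had 504.5 (224.2 and 277.8) with the summit 48 bp upstream. H09I01.2 had 491.2 (215.6 and 276.3) with its summit 54 bp upstream, and F32E10.10 had 458.9 (214.2 and 239.7) with its summit 48 bp upstream. The replicates kept these genes within ranks 25 to 58.

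Among members in an intron of a host gene on the same strand, C51F7.3 was followed by Y43F8C.22, in an intron of Y43F8C.7, with a pooled signal of 780.5 (339.3 in replicate 1, 438.5 in replicate 2) and a summit 44 bp upstream of the snoRNA gene. ZK994.7, in pxn-1, which encodes a peroxidasin, had 611.2 (241.3 and 370.2) and a summit 8 bp after its start. C05D2.15, in madf-11, had 497.4 (219.5 and 273.2) with the summit 52 bp upstream. The next members lay between 344.9 and 433.5. M106.6, in the condensin gene mix-1, had 433.5 (180.3 and 250.2), and T24H7.6, in T24H7.2, had 433.4 (221.8 and 216.4). F38E11.14, in the cyclic nucleotide-gated channel gene cng-3, had 424.4 (210.4 and 212.1), and D1046.6, in the cleavage factor gene cfim-2, had 419.1 (179.3 and 238.9). F55A11.10, in F55A11.6, had 406.1 (182.7 and 221.2), and C10C6.8, in the cation transporter gene catp-8, had 344.9 (147.7 and 196.8). Few of these intronic snoRNA genes had a coding gene start nearby. The nearest was 843 bp or farther from all of the 10 except F38E11.14 (173 bp, wrt-3) and F55A11.10 (67 bp, F55A11.11). Distances are from the snoRNA gene, and only the outermost 5' end of each coding gene counted as its start. Starts of other transcripts inside a gene were not read.

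**Figure D2:**
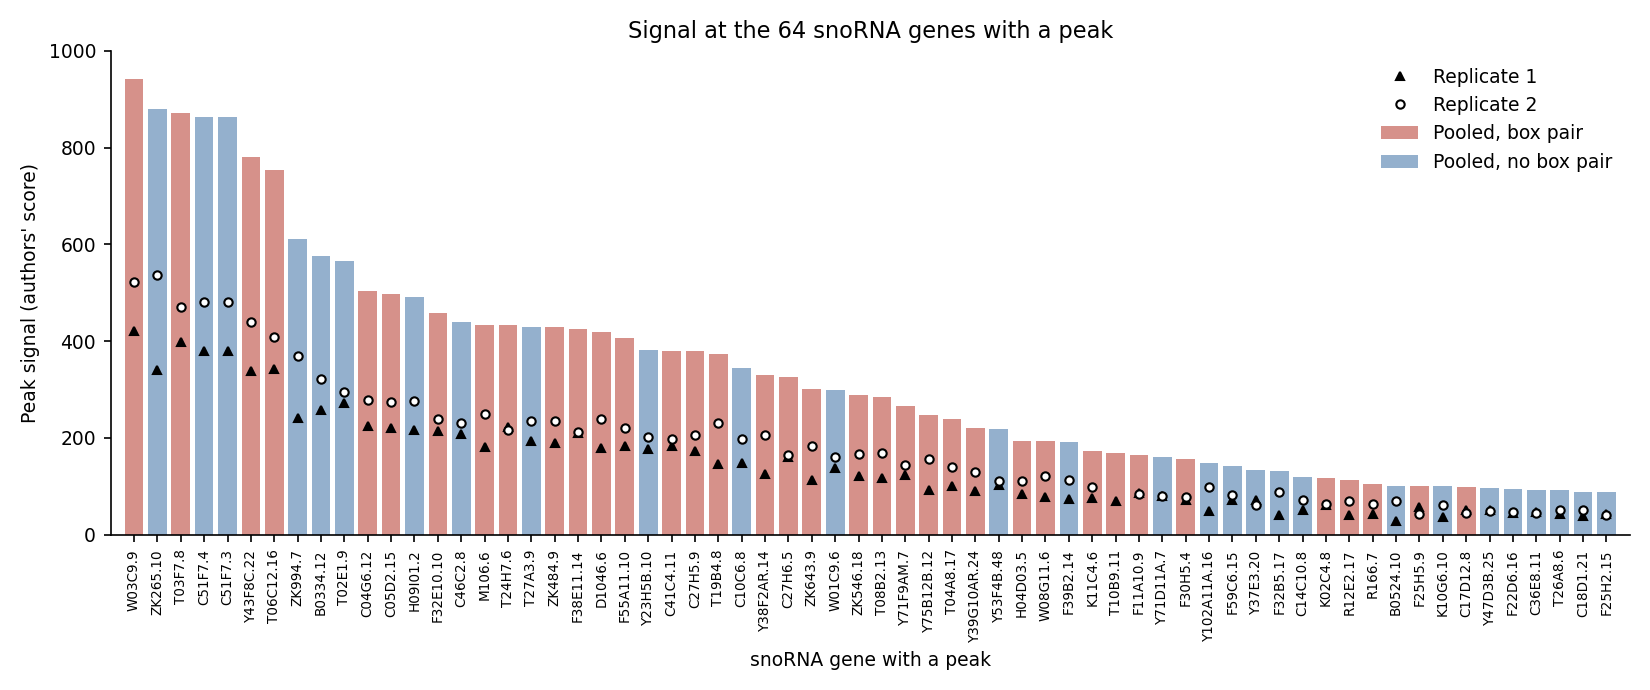
Peak signal at each of the 64 snoRNA genes with a peak, in order of the pooled signal (bars, 36 with and 28 without a box pair) with the signal of the overlapping entry in each replicate (symbols). C51F7.4 and C51F7.3 show the same peak, the signal runs from 942.5 at W03C9.9 to 89 at F25H2.15, and T10B9.11 has no replicate 2 symbol.

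The replicates disagreed most on rank at weak members. F25H5.9, in the pyruvate kinase gene pyk-1, ranked 835 in replicate 1 and 2396 in replicate 2, C17D12.8 ranked 1022 and 2187, and Y37E3.20 ranked 535 and 1081. In the other direction B0524.10, in pqn-41, ranked 4987 in replicate 1 and 888 in replicate 2, F32B5.17 ranked 1669 and 554, and Y102A11A.16 ranked 1102 and 453. All of these had a pooled signal of 148.4 or less, in the lower part of the members. T10B9.11 had a pooled signal of 168.0 and rank 566 in replicate 1, with no overlapping entry among the 30000 of replicate 2. The lowest signals were 92.0 at T26A8.6, 89.1 at C18D1.21 and 89.0 at F25H2.15.

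The summit stood just upstream of the snoRNA gene in most members. Its position relative to the first base of the gene had a median of -45.5 bp and ran from -156 to 216 bp, where negative values are upstream. It was upstream of the start in 49 of 64 members, inside the gene in 12 and beyond its end in 3, and it fell between 80 and 20 bp upstream in 42 (65.6%). Counting each peak once with its nearest member, 57 of 63 summits (90.5%) were on the 5' side of the gene's midpoint and 6 on the 3' side (exact two-sided sign test, p adjusted over 4 sign tests = 6.558e-11). The rule for membership treats both sides alike, so the side was not fixed by it. The members nearest to the 200 bp limit were F32B5.17 (156 bp from the gene), C18D1.21 (139 bp) and F39B2.14 (126 bp), and the snoRNA genes nearest beyond it were F48A9.6 (245 bp), C26C6.13 (298 bp) and C27H5.10 (308 bp).

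**Figure D3:**
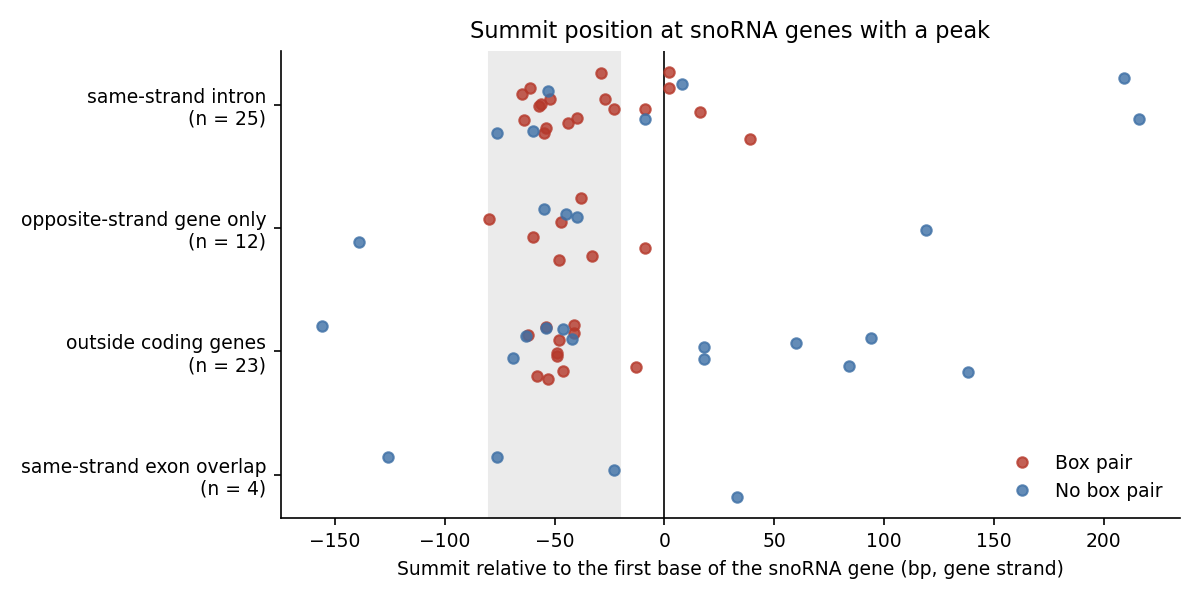
Position of the summit relative to the first base of the snoRNA gene (x, bp on the gene's strand, negative is upstream) for the 64 members by their place in the annotation, with points shifted vertically at random for visibility. The grey band marks 80 to 20 bp upstream, which holds 42 summits, 29 of them at genes with a box pair.

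Neither the share in a same-strand intron nor the share near a coding gene start differed between members and the others past the test's threshold. In an intron of a same-strand coding gene lay 25 of 64 members (39.1%) and 120 of 282 genes without a peak (42.6%), an odds ratio of 0.866 with an exact 95% interval of 0.475 to 1.56 (two-sided Fisher exact test, p adjusted over 7 shares = 0.777). The 25 intronic members sit in 25 different host genes (the 120 without a peak sit in 101), and none of the 25 also hosts a snoRNA gene without a peak. Most hosts in both groups hold only 1 snoRNA gene, so few could have been shared. Outside coding genes lay 23 members (35.9%) and 101 genes without a peak (35.8%). Only a gene on the other strand was overlapped by 12 members (18.8%) and 26 genes without a peak (9.22%), and a same-strand exon by 4 (6.25%) and 35 (12.4%). The shares of these places were not tested. A coding gene start, taken as the outermost 5' end of the gene, lay within 500 bp of 12 of 64 members (18.8%) and 64 of 282 others (22.7%). The odds ratio was 0.787 (0.36 to 1.61, Fisher exact test, adjusted p = 0.777). Both intervals include lower and higher odds for the members. Fisher tests over genes describe these lists and not the spread between cultures.

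The share with a recognisable C/D form did not differ past the threshold either. A C box (TGATGA) within the first 25 bases together with a D box (CTGA) within the last 15 was found in 5 of 64 members (7.81%) and 10 of 282 others (3.55%), with an odds ratio of 2.3 (0.594 to 7.71, Fisher exact test, adjusted p = 0.388). These exact letters find few genes in either group, and a miss says nothing about the class of a gene. Members had the lower median annotated length, 122.5 bp (62 to 245) against 132 bp (54 to 344), and 29 of 64 (45.3%) against 64 of 282 (22.7%) were under 100 bp. That length limit was set after the values were seen, so it was not tested.

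Members differed from the other snoRNA genes in the sequence around the gene start. In the window from 200 bp before to 50 bp after the gene start, the box A core TGGCNNAGT was found on either strand in 16 of 64 members (25%), 11 of 282 snoRNA genes without a peak (3.9%) and 1.75% of 19973 nuclear protein-coding gene starts. The odds ratio between members and the other snoRNA genes was 8.14 (exact 95% interval 3.32 to 20.7, Fisher exact test, p adjusted over 7 shares = 3.052e-06). The box B core GTTCNANNC was found in 30 of 64 members (46.9%), 27 of 282 without a peak (9.57%) and 7.12% of coding gene starts, with an odds ratio of 8.26 (4.21 to 16.4, Fisher exact test, adjusted p = 4.692e-10). A box B site inside C51F7.4 also lies upstream of C51F7.3 and was counted for both. With 1 gene per locus the box B odds ratio was 7.54 (29 of 63 against 26 of 258, Fisher exact test, adjusted p = 4.936e-09). The windows also differed in base composition, with a median GC content of 46.6% in members and 41.2% in the others, and the part of this in the box counts was not tested.

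The core of the homeodomain site did not differ past the threshold. TAATCC was present in the same window in 3 of 64 members (4.69%) and 18 of 282 others (6.38%), against 7.88% of coding gene starts, and the odds ratio was 0.722 (0.132 to 2.59, Fisher exact test, adjusted p = 0.777). All 3 were members without a box pair. A run of 3 or more telomere units (TTAGGC), which other peaks of the series often hold, was in the start window of 1 member and 1 gene without a peak (odds ratio 4.43, 0.0559 to 351.3, Fisher exact test, adjusted p = 0.588). Within 195 bp of the summit such a run was found at 1 of 63 member peaks and 570 of 1573 other nuclear peaks (36.2%).

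**Figure D4:**
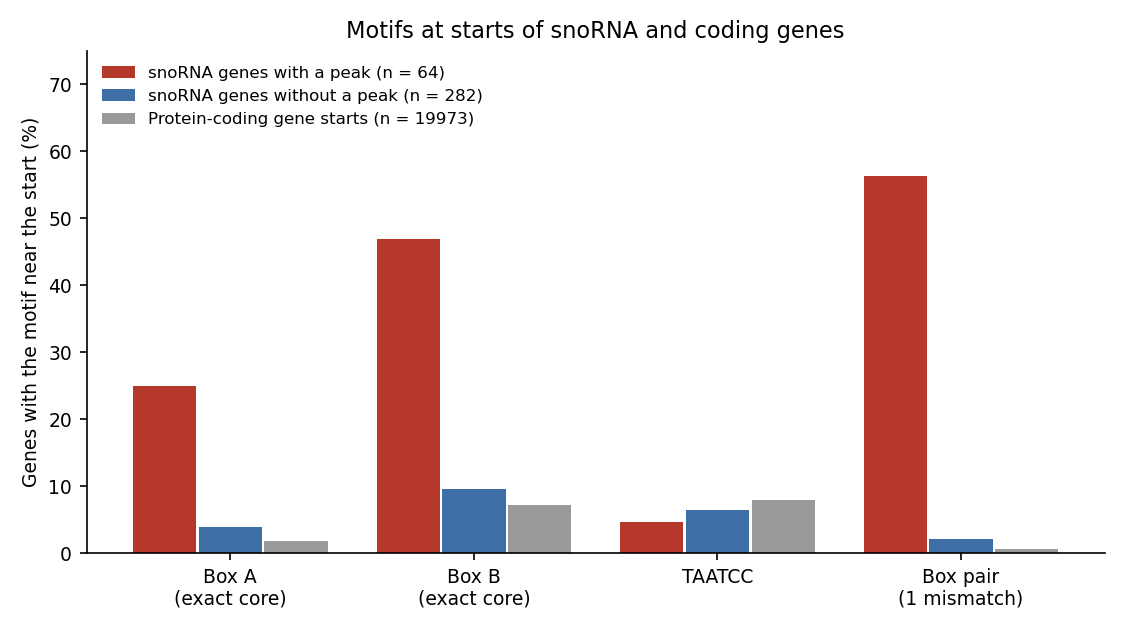
Share of genes (y, %) with each motif near the start in snoRNA genes with a peak (red), snoRNA genes without a peak (blue) and all nuclear protein-coding genes (grey). The first 3 motifs are exact cores from 200 bp before to 50 bp after the start. The box pair is the sense-strand arrangement with at most 1 mismatch per box, defined after the windows had been seen and not tested. Box A, box B and the pair are higher in the 64 genes with a peak and TAATCC is not.

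Windows around the summit were also compared with windows beside them. Most summits lay close to the gene start, so the summit windows overlap the start windows and can hold the same cores. The summit and start results are therefore not independent. Within 100 bp of the summit the box A core was found at 17 of 63 member peaks (27%), against 0 in windows of equal width centred 500 bp to the left (exact two-sided sign test, p adjusted over 4 tests = 2.035e-05). Box B was found at 29 summits (46%) and in 4 flanking windows (6.35%), with 27 peaks holding it only at the summit and 2 only in the flank (exact sign test, adjusted p = 3.248e-06). TAATCC was found at 6 summits (9.52%) and in 7 flanking windows (11.1%), with 5 peaks against 6 holding it in 1 window only (exact sign test, adjusted p = 1). Of the 1368 other nuclear optimal peaks with no tRNA gene within 500 bp, 2.27% held box A, 6.29% box B and 48.7% TAATCC within 100 bp of the summit. TAATCC was thus present at a smaller share of member summits than of those peaks, a difference that was not tested.

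The cores often stood in pairs. A box pair was defined, after the windows had been seen, as box A and then box B on the strand of the gene, each with at most 1 mismatch, with box B starting 25 to 60 bp after box A, within 100 bp before to 20 bp after the gene start. It was present in 36 of 64 members (56.2%), 6 of 282 snoRNA genes without a peak (2.13%) and 110 of 19973 coding gene starts (0.551%). Among 612 nuclear tRNA genes, read from 20 bp before to 90 bp after their starts, 467 (76.3%) had a pair of the same form. With no mismatch allowed, 9 members and 1 gene without a peak had the pair. With 2 allowed, 52 of 64 members (81.2%) and 123 of 282 others (43.6%) had it, but so did 33.7% of coding gene starts. Because the definition followed the data, no test is given.

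Box A of the pair began a median of 58 bp upstream of the snoRNA gene (45 to 75 bp) and box B a median of 14 bp upstream (5 to 40 bp). The spacing from the start of box A to that of box B had a median of 44 bp, with quartiles of 44 and 45 bp. The first base of each box thus lay before the annotated gene in all 36. In the windows printed above, box A starts 58 bp upstream of C04G6.12 and box B 14 bp upstream. T03F7.8 has them at 55 and 11 bp upstream, Y43F8C.22 at 53 and 9 bp, and W03C9.9 at 72 and 27 bp. The summit lay a median of 10 bp after the first base of box A (quartiles 5.75 and 33.2 bp), against 8 bp (quartiles 1 and 43.5 bp) at 160 peaks at tRNA genes with such a pair.

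**Figure D5:**
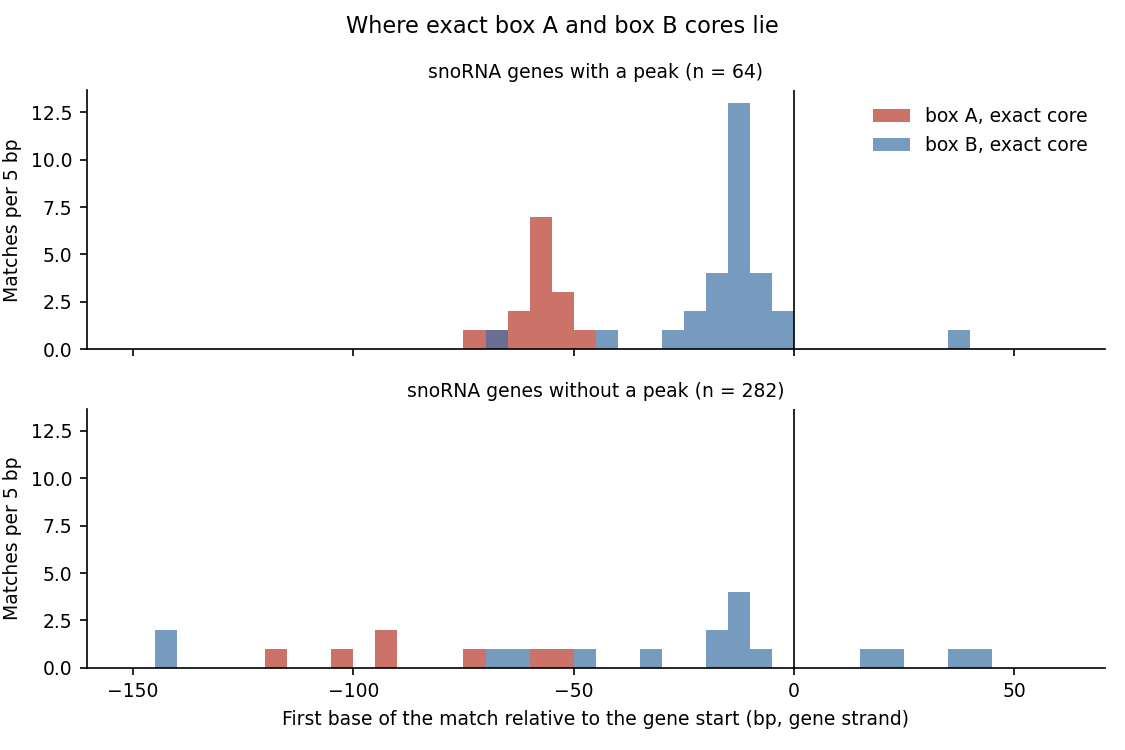
First base of exact box A (red) and box B (blue) cores on the strand of the gene, relative to the gene start (x, bp), as matches per 5 bp, for snoRNA genes with a peak (top) and without (bottom). At genes with a peak the 15 box A cores lie from 75 to 50 bp upstream and the 29 box B cores have a median of 14 bp upstream, while 7 and 17 cores are found in the 282 genes without a peak.

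The pair was found in members in a same-strand intron and also in 18 of the 39 other members (46.2%). It was present in 18 of 25 members in a same-strand intron (72%), 7 of 12 that overlap only a gene on the other strand, 11 of 23 outside coding genes and 0 of 4 that overlap a same-strand exon. Its intronic bearers include Y43F8C.22, T24H7.6, C05D2.15 and M106.6. Others are T08B2.13 in fars-1, which encodes a phenylalanyl-tRNA synthetase subunit, K11C4.6 in the spectrin gene unc-70 and R12E2.17 in the proteasome subunit gene rpn-8. A coding gene start lay within 500 bp of 7 of the 36 members with a pair and 5 of the 28 without. The 36 with a pair had a median signal of 313.5 (99.2 to 942.5) and a median summit position of -47.5 bp, with 29 summits between 80 and 20 bp upstream.

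The 28 members without a pair were more varied. Their median signal was 175.4 (89 to 880.1), but their upper quartile of 451.8 was above the 429.8 of members with a pair. Their summits ran from -156 to 216 bp, with 13 of 28 between 80 and 20 bp upstream. Some were strong: ZK265.10, C51F7.4, C51F7.3, ZK994.7, B0334.12, T02E1.9 and H09I01.2 all had signals of 491.2 or more. Of the 28, 7 had an exact box B core and 2 an exact box A core in the start window, with a box B site shared by C51F7.4 and C51F7.3 counted for both. C51F7.3 is 1 example, whose printed window holds the shared site gttcaaacc at -70 bp and also gttcgaccc at -44 bp. Neither had a partner that met the rule. All of the members whose summit lay more than 80 bp from the gene start on either side lacked a pair. These were F32B5.17, C18D1.21, F39B2.14, B0334.12, F25H2.15, Y102A11A.16, F59C6.15, K10G6.10 and B0524.10. The rule for the pair read only from 100 bp before to 20 bp after the gene start. All of these summits lie outside that range, so a pair at them could not have been found. C17D12.8, whose summit lay 80 bp upstream, has a pair.

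Read the other way, with at most 1 mismatch per box, 36 of the 42 snoRNA genes with a box pair had a peak (85.7%). Of the 304 without a pair, 28 had a peak (9.21%). The pair was defined after these windows had been seen, so these shares are descriptions and were not tested. They also depend on the mismatches allowed: with 2 per box, 52 members and 123 genes without a peak had the pair. The 6 with a pair and no optimal peak were F12F6.11, F19H8.6, C08D8.3, Y59E1B.14, K10D2.10 and F17C11.15. F12F6.11 had strong entries in both replicates, with a signal of 132.0 and rank 162 in replicate 1 and 158.1 and rank 179 in replicate 2, at 45 and 61 bp upstream of the gene, but no entry in the pooled list overlapped them. Taking the top of each replicate's list to the length of the optimal list, 1165 entries of replicate 1 overlapped one of replicate 2, and of these 6 had no overlapping pooled entry. F19H8.6 had a weak pooled entry (signal 56.6, rank 4957) and C08D8.3 another (50.7, rank 6691). Y59E1B.14 had an entry in replicate 2 alone (24.8), and the last genes, K10D2.10 and F17C11.15, had none in the 3 longer lists.

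Below the threshold of the optimal list, 89 of the 282 snoRNA genes without a peak (31.6%) had a pooled entry within 200 bp. An entry in replicate 1 was found at 93, in replicate 2 at 83 and in both replicates at 48 (17%). Entries in both need not mark the same place: at K02B9.10 their summits lay at 131 and -197 bp from the gene start. The share of other genes by this whole-gene rule was not counted. The strongest pooled entries were at Y53F4B.47 (signal 86.1, rank 1709), C04A2.16 (80.4, rank 1985) and C53B7.8 (79.5, rank 2047). Y53F4B.47 had 39.6 in replicate 1 and 48.7 in replicate 2, and C53B7.8 had 25.6 and 50.7. C04A2.16, in an intron of egl-27, had 51.9 in replicate 2 and no entry within 200 bp in replicate 1. None of these carried a box pair. At gene starts alone, a pooled entry was present at 22.7% of the snoRNA genes without a peak, against 14.1% of the 19792 protein-coding genes with no optimal peak at the start, so entries of this kind were frequent at coding genes too.

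Near-identical sequences limit a few members. A stretch of 36 bp, between 100 bp upstream and the gene end, was shared with another snoRNA gene at another place in the genome by 5 of 64 members (F59C6.15, F25H2.15, ZK643.9, T26A8.6 and C46C2.8, 7.81%) and 16 of 282 genes without a peak (5.67%). The sources used here do not say how reads that fit more than 1 place were treated, so the signal at these 5 is uncertain. Copies outside snoRNA genes, and of the rest of each peak, were not searched for, so other members may be limited too. Only ZK643.9 of the 5 carries a box pair. Read counts are not part of the lists, so the depth behind each peak is unknown and no counting interval can be given.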

How the data were processed

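The data are ChIP-seq peak lists of 2 biological replicates in 1 group, with the ce11 lists used and the ce10 lists not used here. Each list gives a deposited signal per peak, the score that the authors' caller wrote, and a deposited −log10 q-value. The labels call the lists peaks and background as input for IDR (1 per replicate and 1 pooled, 30000 entries each) and optimal IDR thresholded peaks (1662 entries, all in the pooled list), per the labels. For the aligner, the caller and the depth, nothing is given in the sources used here. The ce11 coordinates were read against WBcel235, with Ensembl release 115 genes, and 0 of 1662 peaks ran past a chromosome end. The members, lists and rules here were chosen with earlier results of these data known. Summits are the list's start plus its summit offset. Genes were linked, motifs counted and tests computed with Python 3.11.15, pandas 2.3.3, numpy 2.4.6 and scipy 1.17.1. Shares were compared by Fisher's exact test, two-sided, giving odds ratios with exact 95% intervals and Benjamini-Hochberg adjustment over 7 shares, and summit results used exact sign tests adjusted over 4. The test scripts were tested on simulated data. The p-values describe genes and peaks in these lists, not the spread between cultures. Motifs were searched on both strands, except for box pairs, where only the gene's strand was read. Matches to the cores TGGCNNAGT and GTTCNANNC can overlap by 2 letters, which the spacing of a box pair does not allow. The genes named with values are the 10 strongest members without and the 10 with a same-strand host intron, the 3 with the largest rank ratio in each direction, the 3 just inside and 3 just outside the 200 bp limit, the 3 weakest and the 3 strongest without a peak. Others were named after their values were seen. Alternatives moved the summit distance to 100 and 500 bp, kept tRNA peaks, used interval overlap, used the strongest 831 peaks, used each replicate's 1662 strongest entries alone, and changed windows, flanks, host strand and unit.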

Additional observations from a re-analysis of the deposited data

How the results depend on the processing

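No paired analysis was possible because there is 1 group. The members numbered 50 to 68 under the alternatives, and 60 without replicate 1 to 63 without replicate 2, of which 57 and 59 were among the 64. The box A, box B and summit side results kept their direction and their side of the 0.05 threshold under every alternative run: the odds ratio was 6.34 to 13.9 for box A and 7.28 to 10.7 for box B in the start window, box A and box B at the summit alone made up 100% and 90 to 96.7% of the peaks with the core in 1 window only, and 76.2 to 95.9% of summits were on the 5' side. The results that turned direction were not past the threshold in any setting: the intronic odds ratio became 1.18 with a host on either strand (34 of 64 against 138 of 282, Fisher exact test, adjusted p = 0.719). The TAATCC start window odds ratio was 0.329 (1 of 64 against 13 of 282, Fisher exact test, adjusted p = 0.673) with the window from 100 bp upstream, and ran from 0.485 to 1.06 when a replicate was left out. The telomere repeat odds ratio was 0 with the summit within 100 bp, and ran from 0 to 4.8 when a replicate was left out. TAATCC at the summit alone made up 80% of the peaks with it in 1 window only when the flank was taken to the right, and 36.4 to 55.6% when a replicate was left out. The cause was not tested. Alternatives for the box pair were chosen after seeing the data: its share of members stayed between 52.9 and 62% under other choices of members, and was 14.1% with no mismatch and 81.2% with 2, since the rule then takes fewer or more letters as a match. The unknown depth and the absence of a control list limit every value.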
